A study of Mus musculus with 12 samples.

Results

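The genes described here encode subunits, and a few assembly factors, of mitochondrial oxidative phosphorylation in mouse liver. They were taken from the array annotation by symbol: a probe set was used if it named a single gene whose symbol starts with Nduf, Sdha to Sdhd, Uqcr, Cox4 to Cox8 or Atp5. This gave 94 genes, here called members, of the 18193 genes with a probe set. Each gene was read by its probe set with the highest mean log2(signal + 16) over the 12 arrays. Of the members, 34 are complex I subunits, 4 complex II subunits, 8 complex III subunits, 17 complex IV subunits, 17 ATP synthase subunits and 14 assembly and other factors. A filter on low signals kept 90 of them among 14069 genes tested, and the 4 left out were Cox6b2, Cox7a1, Cox7b2 and Cox8b, which are complex IV isoforms known from tissues other than liver.

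The respiratory chain passes electrons from NADH through complex I, and from succinate through complex II, to complexes III and IV, and the proton gradient that complexes I, III and IV build drives the ATP synthase. All members are nuclear genes, and their proteins assemble with a few subunits encoded by mitochondrial DNA, which are not described here. Hepatocytes are rich in mitochondria and use this ATP for urea synthesis, gluconeogenesis and biosynthesis.

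The study asked how loss of YAP, the transcriptional co-activator of the Hippo pathway encoded by Yap1, alters the liver's response to TCPOBOP, a ligand of the nuclear receptor CAR that makes hepatocytes divide. All mice were YAP fl/fl females aged 8 to 12 weeks, and all had received an AAV8 vector whose TBG promoter is active in hepatocytes. YAP KO mice received AAV8-TBG-Cre and WT mice AAV8-TBG-GFP, so the WT livers carry floxed alleles too and other liver cells of the YAP KO mice keep Yap1. TCPOBOP at 3 mg/kg in corn oil was given by gavage 10 days after the virus, and day 0 livers received the virus alone, so no vehicle-treated livers stand beside days 1 and 2. Liver RNA was hybridized to 12 single-colour Affymetrix arrays: 2 YAP KO and 2 WT arrays for day 0, a single RNA pool per genotype for day 1, and 3 YAP KO and 3 WT arrays for day 2. The labels do not say that arrays of a group came from separate mice, so p-values measure the spread between these arrays, which may be technical.

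Every YAP KO array read less Yap1, at 449.6 to 796.7 signal units, than any WT array, at 999.2 to 1306.3 units. The hepatocyte marker Alb was read at 41726 to 114244 units on the 12 arrays. The spread of the signals at day 2 differed from that at day 0 of the same genotype, in opposite directions in the 2 genotypes. The highest signal of an array was 48217 to 67457 units in YAP KO livers at day 2, against 88576 and 102372 units in YAP KO livers at day 0. In WT livers it was 103216 to 116918 units at day 2, against 71165 and 73118.5 units at day 0. The bacteriophage cre control, a spike-in of the hybridization mix, had its highest probe set at 12457 to 14874 units in YAP KO livers at day 2, against 24437.5 and 26637 units in YAP KO livers at day 0. In WT livers this probe set was at 29420 to 30398 units at day 2, against 18232 and 18772.5 units at day 0. At day 0 both readings were already higher on the YAP KO than on the WT arrays. From day 0 to day 2 these spreads narrowed in YAP KO and widened in WT livers, which are also the directions of the member medians as deposited. The part of the spreads in the results, those of day 0 included, was not tested beyond the normalizations given. Members lie high on the signal scale, with 56 of 94 above 12 in mean log2(signal + 16) against 803 of 14069 genes tested, which gives their place in the range of signals and not transcript levels. Results are given as deposited and, where stated, after quantile normalization, which gives all arrays 1 distribution of signals. Cell type markers are given as deposited unless stated, and so without correction for these spreads. In whole liver RNA, fewer cells of a type and less RNA per cell cannot be told apart.

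Promoter sequences, running from 250 bases before to 50 bases after the gene start, were found for 78 of the 94 members in RefSeq on GRCm38.p6. Of these, 6 are given, for 3 members whose change differed between the genotypes under every normalization tried (Atp5e, Ndufb2 and Uqcrh) and for the 3 with the largest rise in WT livers (Atp5k, Ndufa8 and Ndufs4). Each is written 5′ to 3′ on the strand of its gene, and capitals mark letters, on either strand, of the searched motifs GCATGCG (the NRF1 core), CCGGAAG (the ETS or GABP core), AAGATGG (the YY1 core), AAGGTCA (a nuclear receptor half-site), CCAAT and GGGCGG (a GC box).
Atp5e, chr2:174464052-174464351, minus strand: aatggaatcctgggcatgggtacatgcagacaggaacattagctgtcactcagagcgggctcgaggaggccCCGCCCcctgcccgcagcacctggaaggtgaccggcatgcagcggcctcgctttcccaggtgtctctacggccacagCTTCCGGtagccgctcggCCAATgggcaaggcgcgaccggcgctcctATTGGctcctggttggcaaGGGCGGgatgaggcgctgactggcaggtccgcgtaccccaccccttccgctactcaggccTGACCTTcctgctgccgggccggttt
Ndufb2, chr6:39592315-39592614, plus strand: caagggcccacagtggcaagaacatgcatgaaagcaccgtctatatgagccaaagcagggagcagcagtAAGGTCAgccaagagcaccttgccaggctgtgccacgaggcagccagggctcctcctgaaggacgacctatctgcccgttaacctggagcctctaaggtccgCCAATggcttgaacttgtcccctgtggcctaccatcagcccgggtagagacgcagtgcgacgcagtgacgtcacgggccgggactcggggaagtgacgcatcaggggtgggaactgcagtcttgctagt
Uqcrh, chr4:116075021-116075320, minus strand: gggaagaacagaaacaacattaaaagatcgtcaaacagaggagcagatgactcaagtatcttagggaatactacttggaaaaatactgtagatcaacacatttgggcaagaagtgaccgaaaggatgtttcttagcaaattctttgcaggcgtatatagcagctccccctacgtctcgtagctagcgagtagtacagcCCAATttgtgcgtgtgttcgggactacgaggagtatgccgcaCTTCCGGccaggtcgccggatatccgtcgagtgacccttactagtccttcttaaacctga
Atp5k, chr5:108434350-108434649, minus strand: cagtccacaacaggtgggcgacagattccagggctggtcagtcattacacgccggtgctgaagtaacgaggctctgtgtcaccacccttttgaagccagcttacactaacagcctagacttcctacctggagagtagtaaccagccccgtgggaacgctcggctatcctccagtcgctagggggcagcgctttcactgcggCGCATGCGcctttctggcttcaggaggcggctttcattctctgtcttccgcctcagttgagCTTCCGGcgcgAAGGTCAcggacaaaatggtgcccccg
Ndufa8, chr2:36049289-36049588, minus strand: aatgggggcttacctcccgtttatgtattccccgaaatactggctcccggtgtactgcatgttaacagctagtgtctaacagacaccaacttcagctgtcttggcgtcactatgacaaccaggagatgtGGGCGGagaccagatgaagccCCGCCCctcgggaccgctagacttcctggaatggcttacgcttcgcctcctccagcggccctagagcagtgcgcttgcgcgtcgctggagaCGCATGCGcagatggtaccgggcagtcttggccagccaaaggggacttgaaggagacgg
Ndufs4, chr13:114388045-114388344, minus strand: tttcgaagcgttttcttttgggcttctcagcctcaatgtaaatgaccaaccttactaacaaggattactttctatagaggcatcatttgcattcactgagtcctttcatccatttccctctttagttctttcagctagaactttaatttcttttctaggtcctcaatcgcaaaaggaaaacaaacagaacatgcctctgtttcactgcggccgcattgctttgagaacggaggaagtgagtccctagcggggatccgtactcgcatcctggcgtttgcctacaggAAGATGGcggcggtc

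The promoters of Atp5k and Ndufa8 both hold the NRF1 letters on both strands at 1 place, starting 49 and 9 bases before the gene start, and those of Atp5e, Uqcrh and Atp5k hold the ETS letters. The Atp5k, Atp5e and Ndufb2 windows hold the half-site, and the Ndufs4 window holds only the YY1 letters, 36 bases after the start. Over 83 windows of the 78 members, the NRF1 letters were found in 14.5%, against 4.44% of 21262 windows of protein-coding genes and 3.58% of 32851 windows of all genes. For the ETS letters the shares were 26.5%, 11.6% and 8.86%. The YY1 letters were in 13.3% of member windows, 6.24% of protein-coding windows and 6.34% of all windows, and the half-site in 9.64%, 4.08% and 4.72%. CCAAT was found in 41.0%, 38.2% and 37.4% of windows and GGGCGG in 48.2%, 46.2% and 35.7%. No member window had overlapping ETS and YY1 letters. A match is a stretch of letters and not a bound site.

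In YAP KO livers, more members fell than rose between day 0 and day 2. As deposited, 21 of the 90 tested members fell and 1 rose, where 4.5% of all genes tested fell and 4.23% rose. The median log2 difference of the members was -0.28, beside 0.05 over all genes tested. After quantile normalization 14 members fell and 4 rose, where 4.55% of all genes fell and 4.75% rose, and the medians were -0.18 for members and 0.03 for all genes. Cyclic loess normalization gave 16 falls and 4 rises, where 4.58% and 4.42% of all genes fell and rose. The same 14 genes fell in all 3: Atp5d, Atp5e, Atp5l, Cox5b, Cox6b1, Cox6c, Cox7a2l, Ndufa13, Ndufb2, Ndufs3, Ndufv3, Sdha, Uqcr11 and Uqcrh. All 3 YAP KO arrays of day 2 were below both of day 0 for 52 members as deposited and 43 after quantile normalization, where 17.8% and 18.8% of all genes had this order. They were above for 9 and 13 members, where 22.7% and 21.4% of all genes were. Calls are at an adjusted p under 0.05 in limma, and differences are given on the log2(signal + 16) scale ± SE from a fit with 6 residual degrees of freedom.

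Complex III held the largest fall, that of Uqcrh, the hinge protein that lies beside cytochrome c1. Uqcrh in YAP KO livers read 8314 and 6744 signal units at day 0, 4801 in the day 1 pool and 3612.5, 3427 and 4045 at day 2. Uqcrh in WT livers read 4752 and 5230.2 units at day 0, 4412 in the day 1 pool and 5379, 4889.8 and 5357.5 at day 2. The YAP KO arrays of day 2 lay below all other arrays. The day 2 minus day 0 difference in YAP KO livers was -1.02 ± 0.13, adjusted p = 0.000581 as deposited and -0.90 ± 0.11, adjusted p = 0.000514 after quantile normalization, and the call held without any 1 array. Uqcr11, a small complex III subunit, was the other of the 2 falls among 8 subunits, with 4009.8, 3685 and 4247 signal units in YAP KO livers at day 2, against 7780.0 and 5867 units in YAP KO livers at day 0 (-0.76 ± 0.17, adjusted p = 0.015). Its groups did not overlap, but the call was lost without replicate 1 of YAP KO day 0 or replicate 2 of YAP KO day 2 (adjusted p up to 0.0968). Uqcrc2, a core subunit that is not catalytic in mammals, had a difference of -0.39 ± 0.13, adjusted p = 0.0799. Uqcrc2 in YAP KO livers read 8530.4 and 6658 signal units at day 0, 5991 in the day 1 pool and 5623, 5691.5 and 5896 at day 2. Uqcrc2 in WT livers read 7872 and 7735 units at day 0, 6067 in the day 1 pool and 6485, 6174 and 5847 at day 2. Its highest array was replicate 1 of YAP KO day 0, and its second probe set differed by 0.05 in YAP KO livers.

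Among complex I subunits 8 of 34 fell as deposited and 4 did after quantile normalization, when 1 rose. Ndufa13, a membrane-arm subunit also known as GRIM-19, had the largest fall as deposited. Ndufa13 in YAP KO livers read 11241 and 9144 signal units at day 0, 7983 in the day 1 pool and 4993, 5569 and 6092 at day 2. Ndufa13 in WT livers read 8851 and 10124 units at day 0, 7476 in the day 1 pool and 8688, 7008 and 11605.5 at day 2. The YAP KO arrays of day 2 were below all other arrays. The difference was -0.87 ± 0.19, adjusted p = 0.0147 as deposited and -0.72 ± 0.16, adjusted p = 0.0138 after quantile normalization, and without replicate 1 of YAP KO day 0 (or, as deposited, replicate 1 of YAP KO day 2) it lost the call (adjusted p up to 0.0905 and 0.0652). Ndufb2, a small accessory subunit of the membrane arm, fell most after quantile normalization. Ndufb2 in YAP KO livers read 6677 and 5519 signal units at day 0, 4821 in the day 1 pool and 3402, 3277 and 3315 at day 2. Ndufb2 in WT livers read 4471.5 and 4621 units at day 0, 4645 in the day 1 pool and 4778, 4621 and 5006 at day 2. The YAP KO arrays lay above all WT arrays at day 0 and below them at day 2, as the plot of 6 genes by array shows. Its difference in YAP KO livers was -0.86 ± 0.12, adjusted p = 0.000867 as deposited and -0.75 ± 0.10, adjusted p = 0.000664 after quantile normalization, and no single array ended the call. Averaged over its 3 probe sets, 1 of them dim, it was -0.15 with an adjusted p of 0.655.

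**Figure D1:**
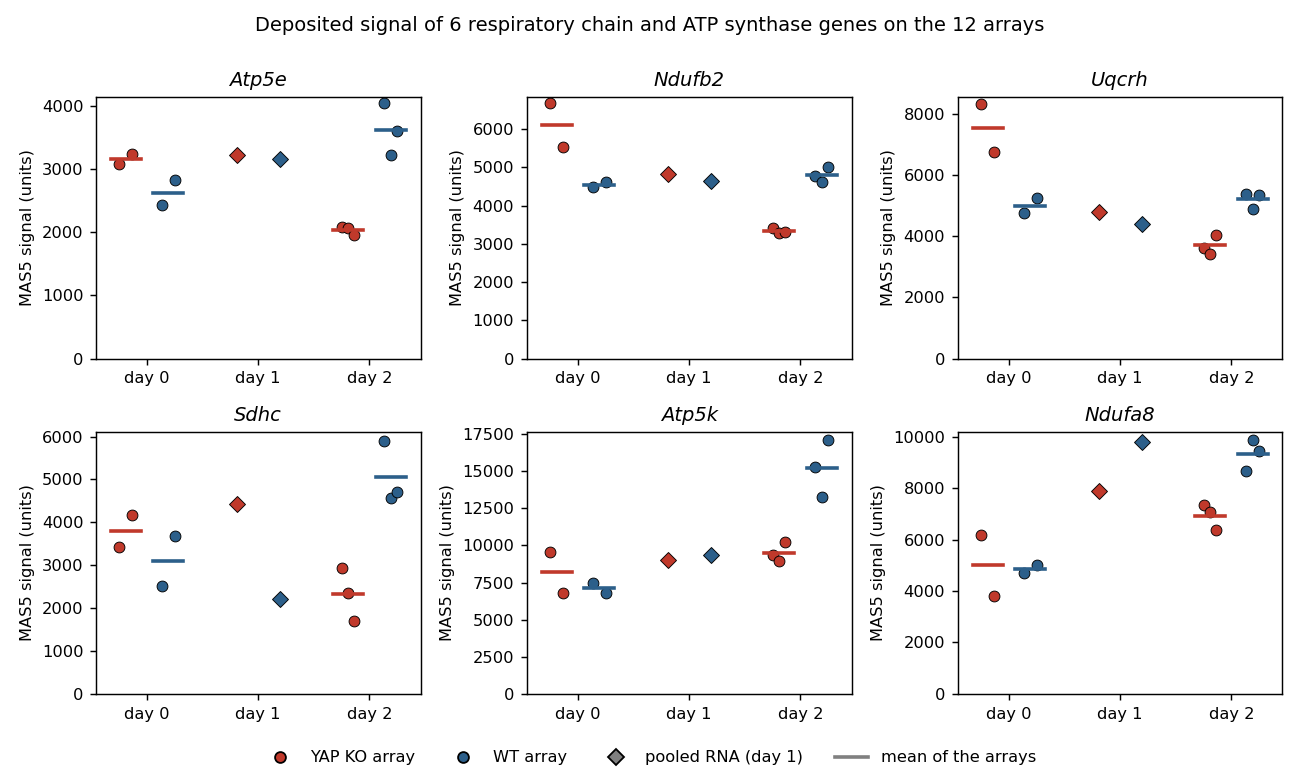
Deposited MAS5 signal (units, linear axis from 0) of 6 members on each of the 12 arrays by day, with YAP KO left of WT; circles are arrays, diamonds the day 1 pools and bars the means. Atp5e, Ndufb2 and Uqcrh are lowest in the 3 YAP KO arrays of day 2, Sdhc there overlaps the WT pool and a WT array of day 0, and Atp5k and Ndufa8 are highest or near highest in the 3 WT arrays of day 2.

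Ndufs3, a core subunit of the peripheral arm, read 2964, 2399 and 2511 signal units in YAP KO livers at day 2, against 4851 and 4125 units in YAP KO livers at day 0 (-0.77 ± 0.16, adjusted p = 0.00979). Ndufv3, a subunit of the NADH-oxidising module, read 3319, 3370.2 and 3598 signal units in YAP KO livers at day 2, against 7089 and 5338 units in YAP KO livers at day 0 (-0.84 ± 0.16, adjusted p = 0.00751). In both genes the groups did not overlap, the quantile-normalized calls held without any 1 array, and the deposited calls were lost without replicate 1 of YAP KO day 0. Other core subunits were not called. Ndufs8 differed by -0.50 ± 0.18, adjusted p = 0.118. Ndufs1, which carries iron-sulfur clusters, differed by -0.11 ± 0.14, adjusted p = 0.72, and Ndufv1, which binds NADH and flavin, by -0.26 ± 0.12, adjusted p = 0.224. Other Ndufv1 probe sets, also above the median on all 12 arrays, differed by -0.86 and -0.64 and were not tested on their own. Ndufs1 in YAP KO livers read 2417 and 1979.6 signal units at day 0, 2456.5 in the day 1 pool and 2074, 1779 and 2274 at day 2. Ndufs1 in WT livers read 2202.5 and 2412 units at day 0, 2513 in the day 1 pool and 2256, 2181 and 2209 at day 2. Ndufs1 had overlapping groups in both genotypes. Ndufv1 in YAP KO livers read 4493 and 3970.4 signal units at day 0, 3005 in the day 1 pool and 3715, 3303 and 3563.5 at day 2. Ndufv1 in WT livers read 3992 and 3996 units at day 0, 3719 in the day 1 pool and 4892, 4273 and 4409.7 at day 2. Ndufv1 was lower in YAP KO than in WT livers on every array of day 2. Ndufa8, a membrane-arm subunit, moved the other way: it passed the test as a rise only after quantile normalization (0.67 ± 0.15, adjusted p = 0.016, against 0.51 ± 0.18, adjusted p = 0.104 as deposited).

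In complex II, or succinate dehydrogenase, the flavoprotein Sdha fell in YAP KO livers. Sdha in YAP KO livers read 10906 and 10024 signal units at day 0, 7434 in the day 1 pool and 6020.2, 5454 and 6581 at day 2. Sdha in WT livers read 8985 and 8512 units at day 0, 7460.5 in the day 1 pool and 6471, 6606 and 7819 at day 2. The YAP KO arrays of day 2 were below those of day 0, and 1 of them was above the lowest WT array of day 2. The difference was -0.80 ± 0.13, adjusted p = 0.00252 as deposited and -0.65 ± 0.11, adjusted p = 0.00348 after quantile normalization, and no single array ended either call. The other 3 subunits did not pass: the iron-sulfur subunit Sdhb had -0.08 ± 0.11, adjusted p = 0.715, and the membrane anchors Sdhc and Sdhd had -0.73 ± 0.23, adjusted p = 0.0707 and -0.56 ± 0.22, adjusted p = 0.15. A second probe set, not tested on its own, differed by -0.82 for Sdhc and by 0.09 for Sdhd. Sdhb in YAP KO livers read 10063 and 9016 signal units at day 0, 9383 in the day 1 pool and 8873, 8827 and 9290.4 at day 2. Sdhb in WT livers read 9869 and 10021 units at day 0, 10639 in the day 1 pool and 10258, 9465 and 9822.5 at day 2. Sdhb stayed within a narrow band on the 12 arrays. Sdhd in YAP KO livers read 7424 and 4822 signal units at day 0, 5025 in the day 1 pool and 3575, 3572 and 5162 at day 2. Sdhd in WT livers read 5839 and 5640.0 units at day 0, 5285.5 in the day 1 pool and 4324, 4050.3 and 5856 at day 2. Sdhd groups overlapped in YAP KO and in WT livers.

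Among 13 tested complex IV subunits, 4 fell as deposited and 3 after quantile normalization. Cox6c, a single-helix subunit, fell most. Cox6c in YAP KO livers read 27562 and 18221 signal units at day 0, 16744 in the day 1 pool and 12241, 13359.9 and 14948.5 at day 2. Cox6c in WT livers read 21019 and 21250.3 units at day 0, 15784 in the day 1 pool and 23118, 20854 and 22706 at day 2. All 3 YAP KO arrays of day 2 were below all other arrays, and replicate 1 of YAP KO day 0 was the highest. The difference was -0.73 ± 0.16, adjusted p = 0.0151 as deposited and -0.56 ± 0.11, adjusted p = 0.00739 after quantile normalization. The quantile-normalized call held without any 1 array, and without replicate 1 of YAP KO day 0 the deposited difference shrank to -0.44 and was not called. Cox6b1, a subunit facing the intermembrane space, read 7905, 8594 and 8755.5 signal units in YAP KO livers at day 2, against 13646 and 12127 units in YAP KO livers at day 0. It had -0.61 ± 0.12, adjusted p = 0.00678 as deposited and -0.46 ± 0.09, adjusted p = 0.0092 after quantile normalization, and both calls held without any 1 array. Cox5b, a zinc-binding subunit on the matrix side, read 10191, 10311 and 11748 signal units in YAP KO livers at day 2, against 20846 and 13602 units in YAP KO livers at day 0 (-0.65 ± 0.17, adjusted p = 0.0334), and without replicate 1 of YAP KO day 0 its difference was -0.34. The fourth was Ndufa4, named as a complex I gene and since shown to encode a complex IV subunit, with -0.45 ± 0.11, adjusted p = 0.0292 as deposited and -0.28 ± 0.09, adjusted p = 0.0942 after quantile normalization.

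Other liver isoforms of complex IV did not pass. Cox4i1 in YAP KO livers read 16286 and 12425 signal units at day 0, 15047 in the day 1 pool and 10118, 11157 and 12021.5 at day 2. Cox4i1 in WT livers read 12299.7 and 14070.5 units at day 0, 12434 in the day 1 pool and 15383.5, 13905 and 14733 at day 2. Cox4i1, the ubiquitous isoform of subunit IV, read lower on every YAP KO than on every WT array at day 2. Cox6a1 in YAP KO livers read 33362 and 21859 signal units at day 0, 23379.5 in the day 1 pool and 21222, 22445 and 25204 at day 2. Cox6a1 in WT livers read 23003 and 25256 units at day 0, 20684 in the day 1 pool and 27682, 25827 and 26177 at day 2. Cox6a1, the liver-type isoform of subunit VIa, had 1 high array, replicate 1 of YAP KO day 0, and its groups overlapped between days in YAP KO livers. Cox7a2 in YAP KO livers read 20756 and 15956.5 signal units at day 0, 15420.1 in the day 1 pool and 13956, 14593 and 15549 at day 2. Cox7a2 in WT livers read 11429 and 12593 units at day 0, 16051.5 in the day 1 pool and 13516, 12514.5 and 14962 at day 2. Cox7a2, the liver-type isoform of subunit VIIa, was higher on both YAP KO arrays of day 0 than on any other array except the WT pool of day 1. Their differences in YAP KO livers were -0.36 ± 0.14, adjusted p = 0.145, -0.24 ± 0.16, adjusted p = 0.424 and -0.31 ± 0.14, adjusted p = 0.205. A second probe set, not tested on its own, differed by -0.51 for Cox6a1 and by -0.18 for Cox7a2.

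In the ATP synthase, 5 of 17 subunits fell as deposited and 3 after quantile normalization. Atp5d, the delta subunit of the central stalk, fell most. Atp5d in YAP KO livers read 14465 and 14362 signal units at day 0, 9725 in the day 1 pool and 8375, 7365 and 8403 at day 2. Atp5d in WT livers read 11005 and 11389.7 units at day 0, 9420.5 in the day 1 pool and 11659, 12699.6 and 16728.5 at day 2. YAP KO arrays were the highest at day 0 among days 0 and 1 and the lowest of all at day 2. The difference was -0.84 ± 0.15, adjusted p = 0.00435 as deposited, a call that held without any 1 array, and -0.68 ± 0.13, adjusted p = 0.00749 after quantile normalization, a call lost without replicate 2 of YAP KO day 0 (adjusted p = 0.0526). Atp5e, the epsilon subunit of the same stalk, fell as well. Atp5e in YAP KO livers read 3084 and 3250.4 signal units at day 0, 3233 in the day 1 pool and 2092, 2064.5 and 1965 at day 2. Atp5e in WT livers read 2437 and 2826 units at day 0, 3165.5 in the day 1 pool and 4050.4, 3232 and 3615 at day 2. All 3 YAP KO arrays of day 2 were below every other array. Its difference was -0.63 ± 0.13, adjusted p = 0.0107 as deposited and -0.58 ± 0.13, adjusted p = 0.0144 after quantile normalization, where it lost the call without replicate 2 of YAP KO day 0 (adjusted p = 0.0826). Atp5l, subunit g of the membrane part, read 4066, 4363 and 4071 signal units in YAP KO livers at day 2, against 7493 and 5976 units in YAP KO livers at day 0 (-0.68 ± 0.15, adjusted p = 0.0168). The catalytic subunits did not pass: Atp5b, the beta subunit, had -0.41 ± 0.13, adjusted p = 0.0821 and Atp5a1, the alpha subunit, -0.39 ± 0.13, adjusted p = 0.0875. A second Atp5a1 probe set, above the median on all 12 arrays, differed by -0.74 and was not tested on its own. Atp5b in YAP KO livers read 16970.2 and 20865 signal units at day 0, 22223 in the day 1 pool and 14732, 13050.4 and 14762 at day 2. Atp5b in WT livers read 15803 and 18433 units at day 0, 22132 in the day 1 pool and 18326, 18056 and 20589 at day 2. Atp5b arrays of the 2 genotypes did not overlap at day 2 and did at day 0. Atp5a1 in YAP KO livers read 20344 and 16199 signal units at day 0, 15049 in the day 1 pool and 14607, 13713 and 13278 at day 2. Atp5a1 in WT livers read 16981.5 and 16577 units at day 0, 16097 in the day 1 pool and 15484, 18350.4 and 17121 at day 2. Atp5a1 showed the same order at day 2 without overlap.

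Of the 14 assembly and other factors, Cox7a2l, which helps complexes III and IV form supercomplexes, fell, and Ndufa4l2 rose. Cox7a2l read 2486, 2462 and 2456 signal units in YAP KO livers at day 2, against 3698 and 3592 units in YAP KO livers at day 0 (-0.56 ± 0.12, adjusted p = 0.016). Ndufa4l2 is a paralogue of Ndufa4 known as a target of hypoxia-inducible factor. Ndufa4l2 in YAP KO livers read 228 and 168 signal units at day 0, 340.3 in the day 1 pool and 396, 454 and 446 at day 2. Ndufa4l2 in WT livers read 405 and 386 units at day 0, 338 in the day 1 pool and 429, 541 and 316 at day 2. It differed by 1.08 ± 0.28, adjusted p = 0.0328 as deposited and 1.02 ± 0.28, adjusted p = 0.0415 after quantile normalization. The 2 YAP KO arrays of day 0 were the lowest of the 12, and at day 2 the genotypes overlapped. On both scales the call was lost without replicate 2 of YAP KO day 0 or any of the 3 YAP KO arrays of day 2 (adjusted p up to 0.14 as deposited and 0.203 after quantile normalization). Quantile normalization added a rise of Sdhaf4, an assembly factor of Sdha (0.67 ± 0.17, adjusted p = 0.0286), and of Atp5k (0.42 ± 0.12, adjusted p = 0.0493).

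The number of falls in YAP KO livers depended on single arrays of both days. Without replicate 1 of YAP KO day 0, which had the higher signals, 11 members fell as deposited and 15 after quantile normalization. Without replicate 2 of that group 28 and 12 fell. Without replicate 1, 2 or 3 of YAP KO day 2, 13, 10 and 14 fell as deposited. Of the 22 calls as deposited 6 held without any 1 array, and of the 18 after quantile normalization 7 did. Other probe sets above the array median on all 12 arrays exist for 12 of the 21 members that fell, and all 16 of these probe sets had a negative difference. Hepatocyte markers moved the same way: 8 of 9 measured, including Alb (-0.84, adjusted p = 0.00399), were called lower at day 2 in YAP KO livers as deposited, and their summed signal was 272069 to 339315 units at day 2 against 488412 to 565462 units at day 0. Summed Kupffer cell markers (9 of 9 measured) were at 7698 to 9645 units at day 2 against 11688 to 12294 units at day 0, and summed stellate cell markers (9 of 9) at 10498 to 11651 units against 12621 to 16837 units. Sinusoidal endothelial markers (9 of 9) were at 7929 to 8936 units against 9180.0 to 10638 units. None of these sums overlapped between the days, and C1qb, a Kupffer cell marker, had -1.63 (adjusted p = 5.62e-05). Not every marker fell with its sum. The Kupffer cell markers Adgre1 (0.03), Marco (0.62) and Timd4 (0.38) were higher at day 2 without a call. So were the stellate cell markers Acta2 (0.41), Col1a1 (0.71) and Des (0.69). The part of these markers in the members' falls was not tested.

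**Figure D2:**
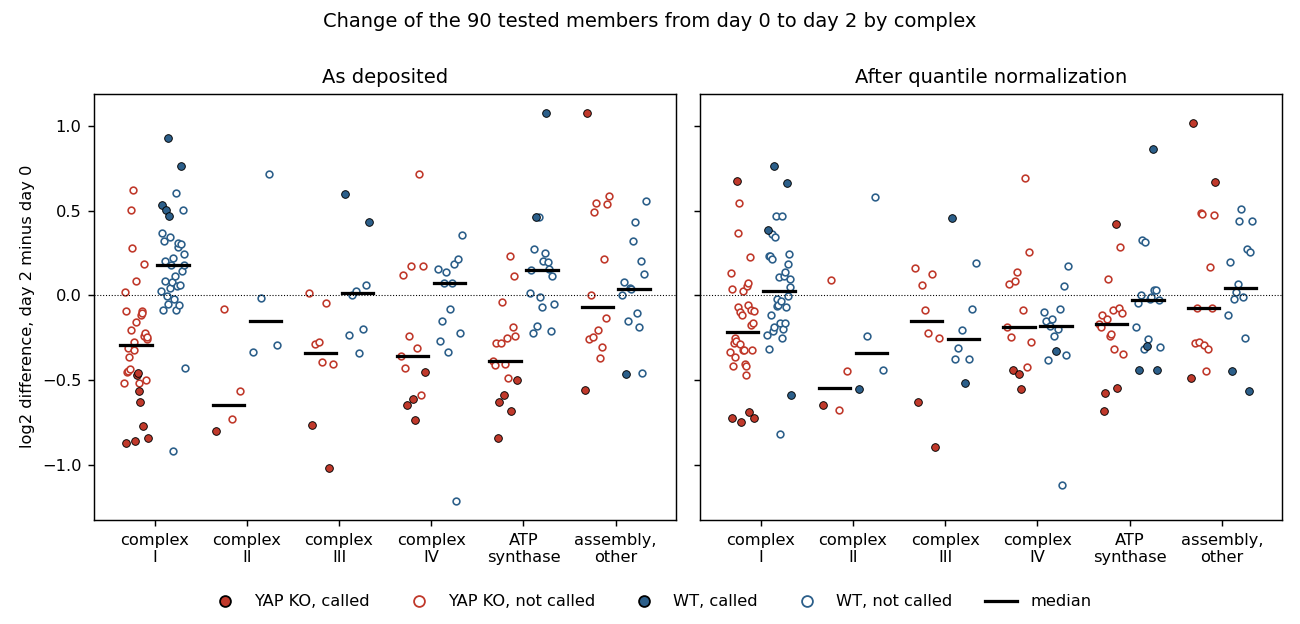
Log2 difference, day 2 minus day 0, of the 90 tested members by complex, as deposited (left) and after quantile normalization (right); each point is a member in YAP KO (red, left of each pair) or WT livers (blue), filled where called, and bars are medians. YAP KO medians are below 0 in every class on both sides, and WT medians of complexes III and IV and the ATP synthase move below 0 on the right.

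In WT livers the members showed no single direction at day 2. As deposited, 9 of 90 rose and 1 fell relative to day 0, where 7.26% of all genes tested rose and 5.4% fell, and the median was 0.08 for members and -0.11 for all genes. After quantile normalization 5 rose and 9 fell, where 6.75% and 5.96% of all genes did, with medians of -0.05 and -0.06. Cyclic loess gave 5 rises and 11 falls, where 7.35% and 5.94% of all genes rose and fell. The WT arrays of day 2 were above those of day 0, without overlap, for 27 members as deposited and 16 after quantile normalization, where 19.2% and 20.1% of all genes were, and below for 10 and 28 members, where 25.9% and 23.9% of all genes were. The same 5 genes rose on both scales and by cyclic loess: Atp5k, Ndufa10, Ndufa8, Ndufs4 and Uqcr10.

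Atp5k, subunit e of the ATP synthase, which helps the enzyme form dimers, rose most. Atp5k in YAP KO livers read 9568 and 6819 signal units at day 0, 9043.5 in the day 1 pool and 9343.5, 8943 and 10213 at day 2. Atp5k in WT livers read 7502 and 6819 units at day 0, 9355 in the day 1 pool and 15263, 13228 and 17121 at day 2. The 3 WT arrays of day 2 were above all other arrays. The difference in WT livers was 1.08 ± 0.16, adjusted p = 0.000954 as deposited, or 2.11-fold, and 0.87 ± 0.12, adjusted p = 0.0006 after quantile normalization, and no single array ended it. Its other 2 probe sets differed by 0.86 and 1.12. Ndufa8 was the largest rise in complex I. Ndufa8 in YAP KO livers read 6188 and 3813.5 signal units at day 0, 7876 in the day 1 pool and 7337, 7059.9 and 6369 at day 2. Ndufa8 in WT livers read 4717 and 5024 units at day 0, 9806 in the day 1 pool and 8650.3, 9878 and 9425 at day 2. The WT arrays of day 2 were above both groups of day 0 and the YAP KO arrays of day 2, and 1 was above the WT pool of day 1. The difference was 0.93 ± 0.18, adjusted p = 0.00458 as deposited and 0.76 ± 0.15, adjusted p = 0.00641 after quantile normalization, and without replicate 1 of WT day 0 the call was lost (adjusted p = 0.0511 and 0.0678). Ndufs4, an accessory subunit needed for a stable complex I, also rose. Ndufs4 in YAP KO livers read 1859.6 and 1754 signal units at day 0, 2687 in the day 1 pool and 2102, 2130.5 and 1935 at day 2. Ndufs4 in WT livers read 1503 and 1677.5 units at day 0, 2563 in the day 1 pool and 2797.5, 2515.5 and 2812 at day 2. WT arrays of day 2 did not overlap those of day 0. Its difference was 0.76 ± 0.12, adjusted p = 0.00155 as deposited and 0.67 ± 0.11, adjusted p = 0.00266 after quantile normalization, and both calls held without any 1 array. Its 2 other probe sets above the median on all 12 arrays differed by 0.27 and -0.27.

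Ndufa10, a membrane-arm subunit, read 4717, 4627 and 5269 signal units in WT livers at day 2, against 3126 and 3603 units in WT livers at day 0 (0.53 ± 0.13, adjusted p = 0.0211). Uqcr10, a small complex III subunit, read 6234, 6262 and 6544 signal units in WT livers at day 2, against 4430.4 and 3949 units in WT livers at day 0 (0.60 ± 0.14, adjusted p = 0.0179). Neither gene's groups overlapped, and both calls as deposited were lost without replicate 1 or 2 of WT day 0 or replicate 3 of WT day 2 (adjusted p up to 0.18 and 0.152). Atp5e (0.46 ± 0.13, adjusted p = 0.0388), Ndufa6 (0.50 ± 0.12, adjusted p = 0.0153), Ndufab1 (0.47 ± 0.12, adjusted p = 0.0273) and Uqcrq (0.43 ± 0.12, adjusted p = 0.0413) were called only as deposited. For 5 of the 9 members that rose as deposited, 9 other probe sets were above the median on all 12 arrays. Of these probe sets, 5 had a positive difference, while those of Uqcrq had -0.72 and -0.71 and that of Ndufab1 had -0.41. Ndufab1 is the mitochondrial acyl carrier protein, and Ndufa6 binds it within complex I.

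The 1 fall called on both scales in WT livers was Ndufaf1, a complex I assembly factor, at 939, 908 and 861 signal units in WT livers at day 2, against 1239 and 1265 units in WT livers at day 0. The groups did not overlap (-0.47 ± 0.13, adjusted p = 0.0343 as deposited), but the call was lost without any 1 of the 5 arrays compared (adjusted p up to 0.169). After quantile normalization the falls also held Atp5c1, Atp5g3, Atp5mpl, Cox6b1, Ndufv3, Sdha, Sdhaf2 and Uqcrc2. Ndufv3 read 4075, 3464 and 4958 signal units in WT livers at day 2, against 5709 and 5407 units in WT livers at day 0, a difference of -0.59 ± 0.14, adjusted p = 0.0165 after quantile normalization against -0.43 ± 0.16, adjusted p = 0.114 as deposited. Sdha had -0.55 ± 0.11, adjusted p = 0.00683 after quantile normalization against -0.33 ± 0.13, adjusted p = 0.12 as deposited. Both genes fell in YAP KO livers too, on both scales. The same 2 values were -0.52 ± 0.10, adjusted p = 0.00681 and -0.34 ± 0.13, adjusted p = 0.104 for Uqcrc2, and -0.57 ± 0.13, adjusted p = 0.016 and -0.46 ± 0.15, adjusted p = 0.0634 for Sdhaf2, which attaches flavin to Sdha. For Atp5mpl, a small proteolipid of the ATP synthase, they were -0.44 ± 0.12, adjusted p = 0.0327 and -0.21 ± 0.14, adjusted p = 0.358, and for Cox6b1 -0.33 ± 0.09, adjusted p = 0.042 and -0.08 ± 0.12, adjusted p = 0.708.

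Cell type markers, as deposited, moved in WT livers too. Summed hepatocyte markers were at 489354 to 566079 units at day 2 against 415547 to 420971 units at day 0, with Alb at 0.69 (adjusted p = 0.00918). The hepatocyte markers Ahsg (-0.03), Apoh (-0.41), Asgr1 (-0.22) and Cps1 (-0.15) went the other way without a call. Summed Kupffer cell markers were at 10063 to 10576 units at day 2 against 12560 to 13322 units at day 0. Sinusoidal endothelial markers (9 of 9 measured) were at 5934 to 7207 units against 8405 to 9799 units, and stellate cell markers at 9749 to 10185 units against 12392 to 12957 units. Among tested markers of these 3 cell types, Marco (1.14), Pecam1 (0.04), Acta2 (0.35) and Col3a1 (0.20) went against their sums without a call. None of these sums overlapped between the days, and the part of the markers in the members' changes was not tested.

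Calls in WT livers were few enough that single arrays moved their number. Without replicate 1 or 2 of WT day 0, 2 and 4 members rose as deposited, and without replicate 3 of WT day 2, 3 did. Without 1 of the 2 YAP KO arrays of day 0, which enter only through the shared spread, 14 did. Of 10 calls as deposited and 14 after quantile normalization, 2 each held without any 1 array, those of Atp5k and Ndufs4.

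Between the genotypes at day 2, the deposited values put 22 of 90 members lower in YAP KO livers and 0 higher, and most of these calls depended on the scaling. Over all genes tested 5.24% were lower and 3.99% higher. At an unadjusted p under 0.05, 42 members were lower and 1 was higher. The median was -0.27 for members and 0.09 for all genes. After quantile normalization 7 members were lower and 3 higher, where 3.86% and 3.53% of all genes were, with medians of -0.07 and 0.05. The 7 were Atp5d, Atp5e, Atp5l, Cox6c, Ndufb2, Ndufs8 and Sdhc, all among the 22. Cyclic loess gave 4 lower, Atp5e, Ndufb2, Ndufs8 and Sdhc, and 4 higher, where 4.43% and 3.38% of all genes were lower and higher. In deposited values the 6 arrays of the genotypes did not overlap for 50 members in the downward direction, where 16.1% of all genes had this order, and for 24 after quantile normalization, where 15.7% did. In the upward direction there were 4 and 15 members, where 20.1% and 17.4% of all genes had that order.

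The difference of the members ran with their signal as deposited. Among genes other than members, the median difference was 0.21 for those up to 8 in mean log2 signal, -0.17 for those between 12 and 13, -0.24 between 13 and 14 and -0.41 above 14. The medians of members in the last 3 ranges were -0.29 (32 members), -0.36 (19 members) and -0.32 (5 members). After quantile normalization the other genes of these 3 ranges had medians of 0.05, 0.06 and 0.05, and the members -0.07, -0.05 and 0.12. Across the 90 members, which share the same 6 arrays, Spearman's rho between mean signal and difference was -0.38 as deposited and 0.05 after quantile normalization, given as a description.

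**Figure D3:**
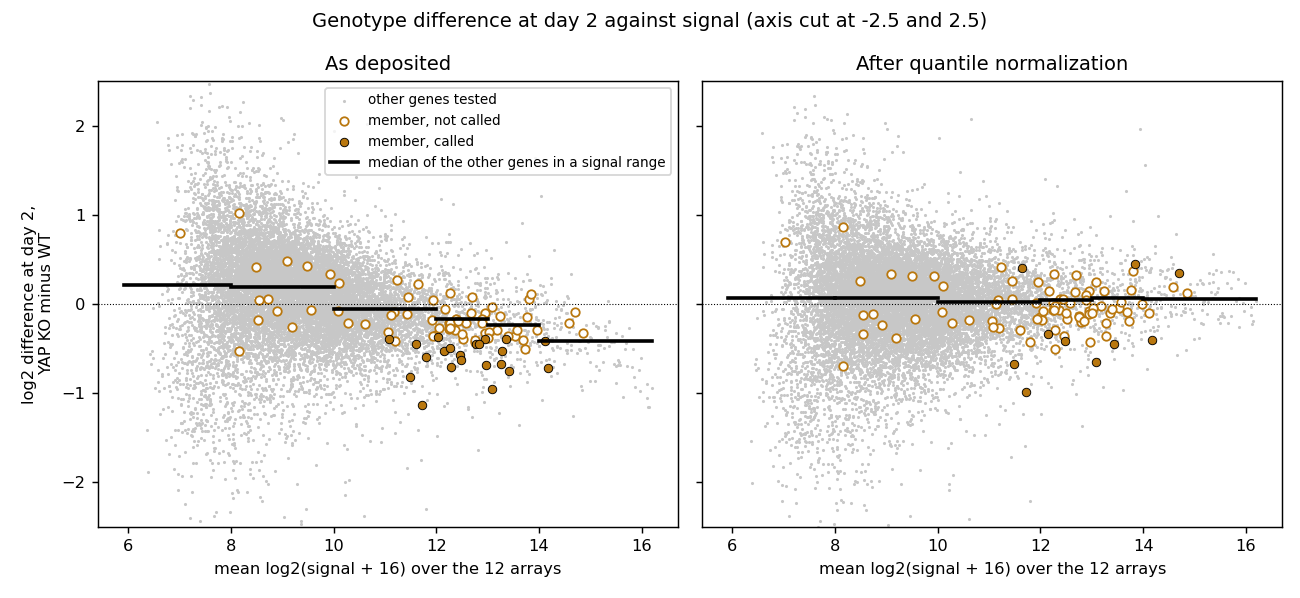
Log2 difference of YAP KO minus WT at day 2 against mean log2(signal + 16) over the 12 arrays, as deposited (left) and after quantile normalization (right); grey points are other genes tested, orange circles the members, filled where called, and black bars medians of the other genes per signal range. The black bars run from 0.21 down to -0.41 on the left and lie between 0.02 and 0.07 on the right, and 22 members are filled on the left and 10 on the right.

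Sdhc, a membrane anchor of succinate dehydrogenase, had the largest difference. Sdhc in YAP KO livers read 3433 and 4169 signal units at day 0, 4431 in the day 1 pool and 2931, 2349.6 and 1702 at day 2. Sdhc in WT livers read 2524 and 3679.7 units at day 0, 2214 in the day 1 pool and 5897, 4576 and 4699 at day 2. At day 2 every YAP KO array lay below every WT array, and at day 0 the genotypes overlapped. The day 2 difference was -1.14 ± 0.20, adjusted p = 0.00797 as deposited, or 2.2-fold lower in YAP KO livers, and -0.98 ± 0.21, adjusted p = 0.0191 after quantile normalization. The day 1 pools ran the other way, and the second Sdhc probe set differed by -0.50 at day 2. Leaving out single arrays did not end the deposited call, and 4 arrays could end the quantile-normalized one (adjusted p up to 0.0636).

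Atp5e differed by -0.82 ± 0.12, adjusted p = 0.00324 as deposited and -0.67 ± 0.11, adjusted p = 0.00977 after quantile normalization, and both calls held without any 1 array. No other member kept both. Ndufs8, a core subunit that carries iron-sulfur clusters near the ubiquinone site, read 6306, 6149 and 6592 signal units in YAP KO livers at day 2, against 12465, 10658 and 13962 units in WT livers at day 2. The genotypes did not overlap, and the difference was -0.95 ± 0.16, adjusted p = 0.00645 as deposited and -0.65 ± 0.13, adjusted p = 0.0151 after quantile normalization. Its other 5 probe sets disagreed, with differences of -0.84, -0.15, -0.17, 0.24 and 0.24, and the mean of all 6 gave -0.27 (adjusted p = 0.133). Ndufb2 differed by -0.52 ± 0.11, adjusted p = 0.0132 as deposited and -0.33 ± 0.09, adjusted p = 0.0427 after quantile normalization.

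In the ATP synthase 6 of 17 subunits were lower in YAP KO livers as deposited and 3 after quantile normalization. Atp5d read 8375, 7365 and 8403 signal units in YAP KO livers at day 2, against 11659, 12699.6 and 16728.5 units in WT livers at day 2, without overlap (-0.75 ± 0.13, adjusted p = 0.00783 as deposited and -0.45 ± 0.12, adjusted p = 0.0442 after quantile normalization). Atp5l had -0.63 ± 0.14, adjusted p = 0.0176 and -0.41 ± 0.11, adjusted p = 0.0498 on the same scales. Atp5k, Atp5g2 (a source of the c-ring) and Atp5b were called only as deposited, at -0.67 ± 0.14, adjusted p = 0.0164, -0.58 ± 0.15, adjusted p = 0.0339 and -0.42 ± 0.12, adjusted p = 0.0472. The catalytic Atp5b gave -0.10 after quantile normalization (adjusted p = 0.645).

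Complex IV held both directions. Cox6c was lower, at -0.72 ± 0.14, adjusted p = 0.0131 as deposited and -0.40 ± 0.10, adjusted p = 0.0306 after quantile normalization, and -0.29 with cyclic loess, where it was not called. Its second probe set differed by -0.19 as deposited. After quantile normalization Cox7a2 (0.45 ± 0.08, adjusted p = 0.0125) and Cox8c (0.40 ± 0.10, adjusted p = 0.0397) were higher in YAP KO livers, and Uqcrb of complex III (0.35 ± 0.08, adjusted p = 0.0296) was too. As deposited these 3 had 0.11 ± 0.12, adjusted p = 0.595, 0.22 ± 0.11, adjusted p = 0.195 and -0.09 ± 0.14, adjusted p = 0.697. Uqcrb read 23685, 24398 and 28517 signal units in YAP KO livers at day 2, against 27596, 24995 and 29018 units in WT livers at day 2, with overlap. In complex III Uqcrq, a small subunit, had -0.52 ± 0.11, adjusted p = 0.0163 as deposited, -0.22 ± 0.12, adjusted p = 0.289 after quantile normalization, and 0.32 as the mean of its 4 probe sets. Cox7a2l was lower only as deposited (-0.45 ± 0.11, adjusted p = 0.0287, against -0.29 ± 0.10, adjusted p = 0.107 after quantile normalization).

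These counts rested on all 6 arrays. Without replicate 1 or 3 of WT day 2, 8 and 6 members were lower as deposited, and without replicate 1, 2 or 3 of YAP KO day 2, 7, 4 and 9 were. Without replicate 1 or 2 of YAP KO day 0, 33 were. Of the 22 calls as deposited 4 held without any 1 array, those of Atp5d, Atp5e, Ndufs8 and Sdhc, and of the 10 after quantile normalization 1 did. For 14 of the 22 members 26 other probe sets were above the median on all 12 arrays, and 19 of these had a negative difference. Hepatocyte markers were lower as well, with summed signals of 272069 to 339315 units in YAP KO livers against 489354 to 566079 units in WT livers, over 9 of 11 listed markers measured and none at 0. Summed Kupffer cell markers were lower without overlap, at 7698 to 9645 units in YAP KO against 10063 to 10576 units in WT livers, and C1qa (-1.81), Clec4f (-0.74) and C1qb (-0.56) of the 9 were called. The Kupffer cell markers Adgre1 (0.14), Cd68 (0.15), Marco (0.15), Timd4 (0.57) and Vsig4 (0.14) went the other way without a call. Summed sinusoidal endothelial markers were higher without overlap, at 7929 to 8936 units in YAP KO against 5934 to 7207 units in WT livers, with Clec4g (0.61) called. The summed stellate markers were also higher without overlap, at 10498 to 11651 units in YAP KO against 9749 to 10185 units in WT livers. No tested stellate cell marker was called, and Reln (-0.10) and Col3a1 (-0.10) went the other way. The untested stellate cell marker Pdgfrb read 110.5, 164.6 and 94.7 units in YAP KO against 196.4, 173.3 and 186.5 units in WT livers. Of 5 measured adipocyte markers, Fabp4 was higher (1.19, adjusted p = 0.00547), and Adipoq, Cidea, Lep and Ucp1 were too dim to be tested. Alb differed by -1.15 as deposited and by -0.23 after quantile normalization. The part of these markers in the members' differences was not tested.

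The test of whether the day 0 to day 2 change itself differed between genotypes called 9 of 90 members as deposited, all with a lower change in YAP KO livers, where 2.07% of all genes had a lower and 1.09% a higher change. None was higher by limma, and at an unadjusted p under 0.05, 2 were higher and 42 lower. The member median was -0.44 and that of all genes 0.11. After quantile normalization 3 were called, Atp5e, Ndufb2 and Uqcrh, where 1.13% of all genes were lower and 0.91% higher, and the medians were -0.10 and 0.07. Cyclic loess called the same 3 genes, where 1.32% of all genes were lower and 0.896% higher.

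For Uqcrh the YAP KO change minus the WT change was -1.08 ± 0.19, adjusted p = 0.0171 as deposited and -0.81 ± 0.16, adjusted p = 0.0329 after quantile normalization. Its WT change was 0.06 ± 0.13 and its YAP KO change -1.02 ± 0.13. Atp5e had -1.09 ± 0.18, adjusted p = 0.016 and -0.91 ± 0.18, adjusted p = 0.0329 on the same scales, from a WT change that was positive and a YAP KO change that was negative. Ndufb2 had -0.94 ± 0.17, adjusted p = 0.0187 and -0.69 ± 0.14, adjusted p = 0.0341, from a WT change of 0.08 ± 0.12. In all 9 members the YAP KO arrays of day 2 were below the WT arrays of day 2, and in all of them except Sdhc both YAP KO arrays of day 0 were above both WT arrays of day 0. The 6 members called only as deposited were Atp5d, Ndufa4, Ndufa6, Ndufb7, Sdhc and Uqcrq, with differences of -1.12, -0.81, -0.87, -1.12, -1.45 and -0.84, and after quantile normalization Sdhc had an adjusted p of 0.0715 and Uqcrq one of 0.225. No call held through the leaving out of each array in turn. The 9 calls became 0 without replicate 1 of WT day 0, 1 without replicate 2 of WT day 0 or replicate 2 of YAP KO day 2, 5 without replicate 1 or 3 of WT day 2 or replicate 3 of YAP KO day 2, and 19 without replicate 2 of YAP KO day 0. After quantile normalization the 3 calls became 0 without any 1 of the WT arrays or replicate 1 or 2 of YAP KO day 2, and 6 without replicate 1 of YAP KO day 0.

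Before TCPOBOP, at day 0, no member was called between the genotypes by limma, as deposited or after quantile normalization, where 0.064% of all genes were higher and 0.107% lower as deposited, and 0.064% and 0.0995% after quantile normalization. Cyclic loess called none either, where 0.0711% of all genes were higher and 0.107% lower. At an unadjusted p under 0.05, 12 members were higher and 2 lower in YAP KO livers as deposited, and 8 and 2 after quantile normalization. The member median was 0.15 as deposited and 0.06 after quantile normalization, beside -0.03 on both scales for all genes. Both YAP KO arrays were above both WT arrays for 29 members as deposited, where 16.5% of all genes had this order, and below for 7, where 19.0% did. After quantile normalization they were above for 23 members and below for 12, where 16.7% and 19.2% of all genes were. Uqcrh had 0.59 ± 0.14, adjusted p = 0.22, Ndufb2 0.42 ± 0.13, adjusted p = 0.381 and Cox7a2 0.60 ± 0.15, adjusted p = 0.227. With 2 arrays a group, this comparison has little precision.

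The day 1 pools hold 1 array per genotype, so their differences have no replicate check and no test. Between the pools 3 of 90 members were higher in YAP KO by more than 1.5-fold, where 9.77% of all genes were, and 1 was lower, where 11.4% were. The member median was 0.00 and that of all genes -0.01. After quantile normalization 3 were higher and 0 lower, where 10.2% and 10.5% of all genes were. Sdhc was the highest, with 4431 signal units in the YAP KO and 2214 units in the WT pool, a log2 difference of 1.00. Ndufaf6 (0.82) and Ndufs5 (0.68) were the other 2, and Ndufaf5 (-0.62) was the lowest, the first and last being complex I assembly factors. Against day 0 of the same genotype, 5 members were higher and 5 lower in the YAP KO pool, where 14.1% and 16.4% of all genes were, and 5 were higher and 3 lower in the WT pool, where 14.2% and 17.3% were. After quantile normalization 3 were higher and 9 lower in the YAP KO pool, where 14.6% and 14.9% of all genes were, and 8 and 4 in the WT pool, where 14.8% and 16.6% were. Ndufv3 was the lowest of the members in both pools against their day 0, at -1.06 in YAP KO and -0.95 in WT livers after quantile normalization. The Ndufv3 pools read 3065 and 3082 units, below both day 0 groups and below the arrays of day 2. Ndufa8 was the highest in the WT pool, at 1.01.

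Complex IV isoforms that are known from other tissues were read at low signals, except Cox8c. Cox6a2 in YAP KO livers read 895 and 549 signal units at day 0, 747 in the day 1 pool and 999.6, 782 and 641 at day 2. Cox6a2 in WT livers read 783.5 and 706 units at day 0, 717 in the day 1 pool and 486, 895 and 465 at day 2. Cox6a2, the heart and muscle isoform of subunit VIa, had overlapping groups throughout. Cox4i2 in YAP KO livers read 622 and 509 signal units at day 0, 473 in the day 1 pool and 596, 595 and 654 at day 2. Cox4i2 in WT livers read 642 and 436.5 units at day 0, 591.5 in the day 1 pool and 405, 346 and 594.5 at day 2. Cox4i2, the isoform of subunit IV known from lung and oxygen-sensing cells, overlapped between days in both genotypes, and at day 2 the lowest YAP KO array was just above the highest WT array. Cox7a1 in YAP KO livers read 7.3 and 138 signal units at day 0, 83.1 in the day 1 pool and 27.1, 88.7 and 136 at day 2. Cox7a1 in WT livers read 99.1 and 96.8 units at day 0, 126 in the day 1 pool and 13.9, 131 and 44.3 at day 2. Cox7a1, the heart and muscle isoform of subunit VIIa, was below the array median on every one of the 12 arrays and was not tested. Muscle markers, 11 of 11 measured, summed to 2176 to 2865 units in YAP KO and 2308 to 2687 units in WT livers at day 2, and Myh6 went down to 4.0 units. Cox8c is known as a testis isoform, and its probe set read 2829 to 3753 units over the 12 arrays, a signal whose source was not tested. The tested isoforms Cox4i2, Cox6a2 and Cox8c gave no call as deposited in any comparison.

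Some probe sets read their gene poorly. Cox7c, a ubiquitous complex IV subunit, was read at 26.2 to 254.8 units by the brighter of its 2 probe sets, above the median on 2 arrays, and its differences, such as -1.21 in WT livers, carry no call. Ndufb1 and Ndufb4 were also dim, at 122.0 to 438.2 and 95.8 to 430.6 units. The chosen probe set of 11 members is of a kind that can read several genes and that of 6 members of a kind that can cross-hybridise, judging by the suffixes _s_at and _x_at, and those of Atp5d, Atp5e, Ndufa13 and Uqcrq, and of Cox5b, Ndufs8 and Sdhc, are among them.

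Other mitochondrial gene lists were read beside the members. Of 76 genes of the mitochondrial ribosome (symbols in Mrpl and Mrps), which makes the subunits encoded by mitochondrial DNA, 18 were lower and 0 higher in YAP KO than in WT livers at day 2 as deposited, where 5.24% of all genes were lower, and the median was -0.37. After quantile normalization 15 were lower and 0 higher, where 3.86% of all genes were lower, and the median was -0.30. In WT livers at day 2, 13 rose and 0 fell against day 0 as deposited, where 7.26% of all genes rose (median 0.22). After quantile normalization 14 rose and 1 fell, where 6.75% of all genes rose (median 0.23). In YAP KO livers 0 rose and 4 fell on either scale, where 4.5% and 4.55% of all genes fell, with Mrps27 at -1.97 as deposited. The change itself was lower in YAP KO livers for 2 of the 76 on either scale, where 2.07% and 1.13% of all genes had a lower change. Mrpl20 had the larger of these differences, at -1.52 as deposited.

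Assembly factors outside the member list and cytochrome c, 27 genes tested, had 5 lower and 0 higher in YAP KO than in WT livers at day 2 as deposited and 2 lower after quantile normalization, where 5.24% and 3.86% of all genes were lower. These shares of all genes also stand behind the day 2 counts of the lists that follow. Uqcc2, an assembly factor of complex III, had -0.83 (adjusted p = 0.00739) and -0.76 (adjusted p = 0.0128) on these scales, and Surf1, an assembly factor of complex IV, -0.57 and -0.56. Against day 0, Sco2, which delivers copper to complex IV, had -0.91 in YAP KO livers, and Cox17, a copper chaperone, 0.86 in WT livers (adjusted p = 0.0152). In WT livers 1 gene of this list rose and 2 fell as deposited, where 7.26% and 5.4% of all genes did. Ttc19 fell most there, at -0.88. After quantile normalization 1 rose and 0 fell, where 6.75% and 5.96% of all genes did. Of 15 genes of the tricarboxylic acid cycle, 1 was lower and 0 higher in YAP KO livers at day 2 as deposited, and 1 was lower and 1 higher after quantile normalization. Dlst, a subunit of 2-oxoglutarate dehydrogenase, was lower in YAP KO than in WT livers at day 2, at -0.96 as deposited and -0.88 after quantile normalization. Mdh2 was the gene that was higher there after quantile normalization (1.27). Against day 0, Dlst fell in YAP KO livers (-1.02). In that comparison 1 gene of the cycle rose and 2 fell as deposited, where 4.23% and 4.5% of all genes did. After quantile normalization 3 rose and 2 fell, where 4.75% and 4.55% of all genes did. Pdha1 rose most, at 0.56 and 0.72 on these scales, and the medians were 0.07 and 0.18. Among 17 genes of import and the outer membrane, 4 were lower in YAP KO livers at day 2 as deposited and 1 after quantile normalization, and 0 were higher on either scale. Vdac1, the outer membrane channel, had -1.02 and -0.75 on these scales. The chaperonin Hspe1 rose against day 0 in both genotypes, at 1.40 and 1.23 in WT livers and at 0.40 and 0.56 in YAP KO livers. Of 14 regulators of mitochondrial transcription and biogenesis, 1 was called in the day 2 comparisons: Ppargc1b, a co-activator, fell in WT livers at -2.47 (adjusted p = 0.00564). Between the genotypes Ppargc1b had -2.30 at day 0 (adjusted p = 0.171). Ppargc1a, Nrf1, Gabpa, Esrra and Tfam gave no call, and their differences between genotypes at day 2 were 0.13, 0.15, -0.07, -0.19 and -0.17.

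**Figure D4:**
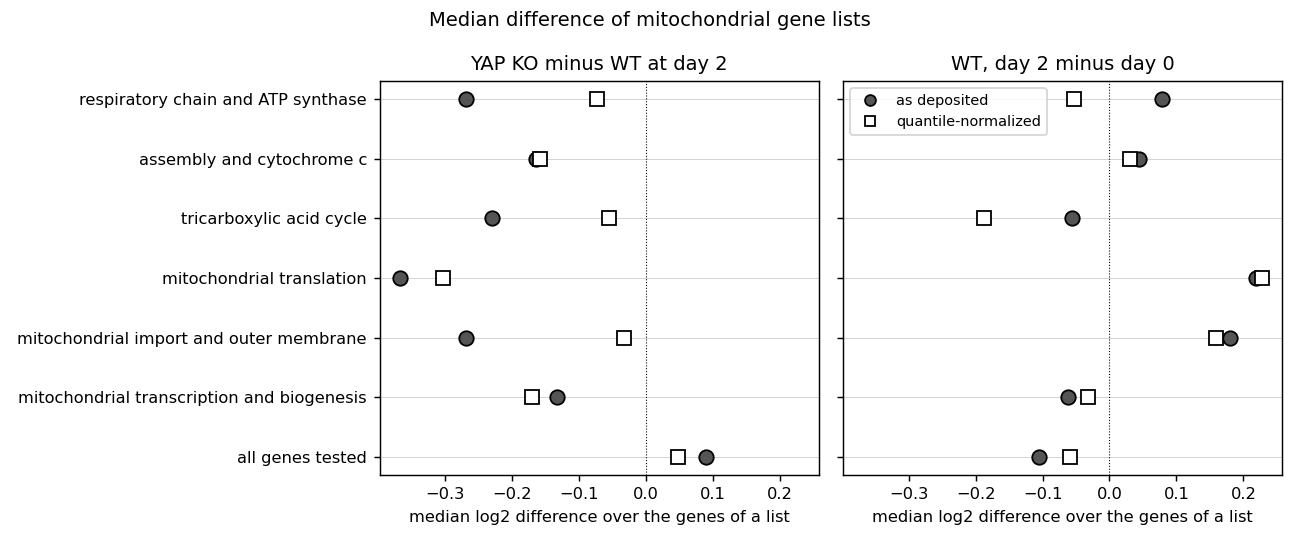
Median log2 difference over the tested genes of each list, for YAP KO minus WT at day 2 (left) and WT day 2 minus day 0 (right); filled circles are deposited values and open squares quantile-normalized ones. On the left the respiratory chain median is -0.27 as deposited and -0.07 after quantile normalization, while the mitochondrial ribosome is at -0.37 and -0.30.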

How the data were processed

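RNA of 12 mouse liver samples was measured on Affymetrix arrays. The deposited values are signal intensities made by the authors with MAS5, per the submitters' processing notes, whose version is not given in the sources used here. Of 45101 probe sets, 34945 name 1 gene, 932 several, 9160 none and 64 are controls. Intensities were tested as log2(value + 16), as deposited and after quantile normalization. A gene was kept if its probe set read above the median of the array on 2 or more of the 12 arrays, which left 14069 genes. One fit of 6 group means (limma 3.58.1, R 4.3.3, eBayes with trend and robust) gave two-sided tests with Benjamini-Hochberg adjustment over all these genes. The fit was checked on simulated data. Python 3.11.15, pandas 2.3.3, scipy 1.17.1 and matplotlib 3.10.9 made tables and figures. No depth exists for arrays: their number limits the precision, and array signal ranges stand in the report.

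Groups came from the sample titles. Replicate numbers do not pair samples: same-numbered samples of different groups had correlations of their deviations from -0.0236 to 0.0354. Named genes are the largest called rise and fall per complex and comparison, on both scales, plus a panel of subunits and isoforms; others named were chosen after their values were seen. The members and lists were chosen with earlier results of these data known. Promoter sequences are RefSeq's on GRCm38.p6. Alternatives were cyclic loess, centring on the median, a pseudocount of 64, no filter, the mean of a gene's probe sets, eBayes without trend and robust, a replicate block and leaving out each array of days 0 and 2. The last 2 after quantile normalization were added after the data were seen. Left out were probe sets naming several genes, among them 10 that name a member.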

Additional observations from a re-analysis of the deposited data

Results flagged for a closer look

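The day 0 to day 2 change of 9 members differed between YAP KO and WT livers by the test of that difference in limma, on deposited values. The YAP KO change minus the WT change was -1.45 for Sdhc, -1.12 for Atp5d, -1.12 for Ndufb7, -1.09 for Atp5e, -1.08 for Uqcrh, -0.94 for Ndufb2, -0.87 for Ndufa6, -0.84 for Uqcrq and -0.81 for Ndufa4, on the log2 scale. Their adjusted p ran from 0.016 for Atp5e to 0.0494 for Ndufb7. After quantile normalization Atp5e, Ndufb2 and Uqcrh were called, and the others had adjusted p between 0.0715 and 0.225. In all 9 the YAP KO arrays were below the WT arrays at day 2 by the chosen probe set. Other probe sets of Uqcrq differed at day 2 by 0.66, 0.63 and 0.51 as deposited. Those of Sdhc (-0.50), Atp5d (-0.49), Ndufb7 (-0.63) and Uqcrh (-0.47) kept the sign.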

How the results depend on the processing

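Counts of called members are given as deposited unless stated, and where one moved, the cause was not tested. Quantile normalization and cyclic loess gave 4 and 4 rises in YAP KO livers against day 0 (1 as deposited), 5 and 5 rises and 9 and 11 falls in WT livers (9 and 1), 3 and 4 members higher and 7 and 4 lower in YAP KO than in WT livers at day 2 (0 and 22), and 3 and 3 lower changes in YAP KO livers (9). Centring on the median gave 0 falls in WT livers, 37 members lower in YAP KO livers at day 2 and 14 lower changes, and the mean of a gene's probe sets gave 4 rises in WT livers. With the replicate number as a block, rises in YAP KO livers and falls in WT livers both came to 0, and after quantile normalization the block gave 1 rise in YAP KO livers, 3 rises and 5 falls in WT livers, 4 members lower in YAP KO livers at day 2 and 0 lower changes. The block moved no other count by over 1.5 times, and same-numbered samples did not deviate together. Plain eBayes gave 8 falls in YAP KO livers, 3 rises and 0 falls in WT livers, 5 members lower in YAP KO livers at day 2 and 0 lower changes, and the other pseudocount and the absence of a filter moved none of these counts past 1.5 times.

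Leaving out 1 array gave 0 to 3 rises (0 to 4 after quantile normalization) and 10 to 28 falls (10 to 15) in YAP KO livers, 2 to 14 rises (2 to 7) and 0 to 3 falls (2 to 12) in WT livers, 0 to 0 members higher (0 to 4) and 4 to 33 lower (1 to 9) in YAP KO livers at day 2, 0 to 1 higher at day 0 after quantile normalization, and 0 to 19 lower changes (0 to 6), with 0 to 1 higher ones after quantile normalization. The sign turned for Atp5k in YAP KO livers without replicate 2 of YAP KO day 0 (-0.0124, in a range of -0.0124 to 0.475 over the arrays left out), for Cox6b1 in WT livers with centring (0.0432), and between genotypes at day 2 for Uqcrq with the mean of probe sets (0.32), Uqcrb with quantile normalization (0.35) and cyclic loess (0.39), and Cox7a2 with centring (-0.0651) and the mean of probe sets (-0.0045). With 6 residual degrees of freedom and 2 arrays a group at day 0, small differences could not be told from the spread.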

Other observations

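The probe sets that name a member together with another gene, 10 in number, entered no comparison. The bright probe set shared by Ndufb4, Ndufb4b and Ndufb4c read 4330.0, 4162 and 4365 signal units in YAP KO livers at day 2, against 5508, 4703 and 5419 units in WT livers at day 2. At day 0 it read 5666 and 5850.4 units in YAP KO and 5000.1 and 5229 units in WT livers. A second probe set of these genes read 1771, 2100.5 and 4275 units in YAP KO livers at day 2, against 3832, 2861 and 3509.9 units in WT livers, with overlap. The bright probe set shared by Ndufa11 and Ndufa11b read 4169.6, 4624 and 4614 units in YAP KO livers at day 2, against 5476, 5272 and 5609.9 units in WT livers. In the first probe set of Ndufb4 and in that of Ndufa11 the genotypes did not overlap at day 2. The probe set shared by Ndufs6 and Ndufs6b read 6409.8, 5763 and 5565 units in YAP KO livers at day 2, against 6019.5, 5605 and 6214 units in WT livers, with overlap.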
